A study of Mus musculus with 9 samples.

Results

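The surface Toll-like receptors Tlr1, Tlr2, Tlr4 and Tlr6, their cofactors Cd14 and Ly96 and the adaptor Myd88 were followed in mouse liver as a group of 7 genes. They were taken by gene name among all non-control probes of the array, which gave 8 probes of 41174 and 7 genes of 27656 names. Every one of the 7 genes passed the filter on dim probes and was among the 16803 genes tested. RNA from liver of male C57BL/6 mice aged 3 months was hybridised to single-colour Agilent arrays, 3 per group. The AAV-hGRβ group received an adeno-associated virus (AAV) vector for human glucocorticoid receptor β (hGRβ), a splice form that does not bind glucocorticoid agonists and is known to inhibit the hormone-binding form. The AAV-GFP group received the vector with green fluorescent protein, and the untreated group received no vector. The labels give neither the promoter, the vector dose nor the time after delivery, and the 2 delivered cargoes were not analysed here. They also do not say whether the arrays of a group came from separate animals, so the p-values measure the spread between these samples, which may be technical.

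Toll-like receptors sense microbial molecules. TLR2 pairs with TLR1 or TLR6 and recognises bacterial lipopeptides, whereas TLR4 recognises lipopolysaccharide together with MD-2, the protein encoded by Ly96, after CD14 has handed the ligand over. All of these receptors signal through MyD88 to NF-κB and so to cytokine and chemokine genes. In liver the Kupffer cells, the resident macrophages, carry these receptors, as do monocytes, neutrophils and dendritic cells, and hepatocytes and sinusoidal endothelial cells express part of the set.

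Each level below rests on a probe of 60 bases, and the sequences are shown because the receptors belong to 1 family and because Tlr4 had 2 probes that behaved differently. Among the 7 member probes other than that of Cd14, the longest run of bases shared by any of the 21 pairs was 5 to 7 bases. Per the file headers, the Tlr2 probe lay at chr3:83941473-83941532, the Tlr1 probe at chr5:64279687-64279746 and the Tlr6 probe at chr5:64307937-64307996, all on the minus strand of mouse build mm7. The main Tlr4 probe lay at chr4:66276388-66276447 on the plus strand. The other probe that the array assigns to Tlr4 lay at chr4:66363220-66363279, which is 86.8 kb further along, whereas the Tlr4 gene of RefSeq (build GRCm38.p6) spans 19.0 kb. The Myd88 probe lay at chr9:119016408-119016467 on the minus strand. The Ly96 probe was placed at chr1:16895437-16898709, a span of 3273 bases for 60 bases of probe, so it crosses an intron and reads spliced RNA. In lower case, 5′ to 3′, the probes were:
Tlr2: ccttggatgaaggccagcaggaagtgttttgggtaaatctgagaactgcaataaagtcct
Tlr1: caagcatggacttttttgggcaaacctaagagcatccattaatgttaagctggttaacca
Tlr6: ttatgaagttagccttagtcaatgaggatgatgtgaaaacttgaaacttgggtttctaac
Tlr4, main probe: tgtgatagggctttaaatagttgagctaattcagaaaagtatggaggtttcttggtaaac
Tlr4, other probe: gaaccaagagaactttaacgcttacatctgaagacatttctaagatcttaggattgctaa
Ly96: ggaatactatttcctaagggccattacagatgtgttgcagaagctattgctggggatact
Myd88: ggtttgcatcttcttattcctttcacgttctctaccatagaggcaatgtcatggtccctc

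Levels are given as log2 of the processed spot intensity minus the 75th percentile of the array, so a level of 0 is that percentile and a difference of 1 is a doubling. They serve to compare arrays for 1 probe and not 1 probe with another. Tests are from limma over all 9 arrays and all genes tested, two-sided, with Benjamini-Hochberg adjusted p-values and a threshold of 0.05. All 7 probes that stood for a gene were well above background on all 9 arrays. Over the arrays, 54% to 82% of gene spots were well above background. Array profiles correlated at 0.972 to 0.987 within a group and at 0.95 to 0.988 between groups. The arrays were scanned on 2 days, with 1 array of each group (AAV-hGRβ 1, AAV-GFP 3 and untreated 2) on the second.

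Tlr2, the receptor that recognises lipopeptides in both of its pairings, rose in AAV-hGRβ livers against both other groups. Its log2 level was 1.21, 1.04 and 1.61 in the AAV-hGRβ livers, against -0.49, 0.01 and 0.01 in the AAV-GFP livers and -0.48, -0.75 and -1.04 in the untreated livers. All 3 AAV-hGRβ arrays lay above every other array, while AAV-GFP 1 and untreated 2 were almost level. The group means were 1.29 ± 0.29 in AAV-hGRβ, -0.15 ± 0.29 in AAV-GFP and -0.76 ± 0.28 in untreated livers (SD, n = 3 each). This is a 2.72-fold difference between AAV-hGRβ and AAV-GFP (log2 difference 1.44, SE 0.24, 95% interval 0.91 to 1.98, limma adjusted p = 0.0309). Against untreated liver it was 4.13-fold (log2 difference 2.05, SE 0.24, limma adjusted p = 0.00472). Between AAV-GFP and untreated livers the Tlr2 difference was 0.61 (SE 0.24), with an unadjusted p of 0.0305 that did not survive adjustment (limma adjusted p = 0.491).

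The Tlr2 call against AAV-GFP was close to the threshold, and the call against untreated liver was not. Against AAV-GFP, Tlr2 passed in 11 of 26 alternative settings with a test, with adjusted p-values between 0.00674 and 0.662 (limma), and in 2 of the 9 fits that left out 1 array. It failed when any AAV-hGRβ or AAV-GFP array, or untreated 3, was left out, with log2 differences of 1.28 to 1.56 and adjusted p-values of 0.0514 to 0.141 in limma. Against untreated liver, Tlr2 passed in 23 of 25 alternative settings and in all 9 fits without 1 array. The size of the Tlr2 difference against AAV-GFP stayed between 1.10 and 1.56 in all alternatives run.

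**Figure D1:**
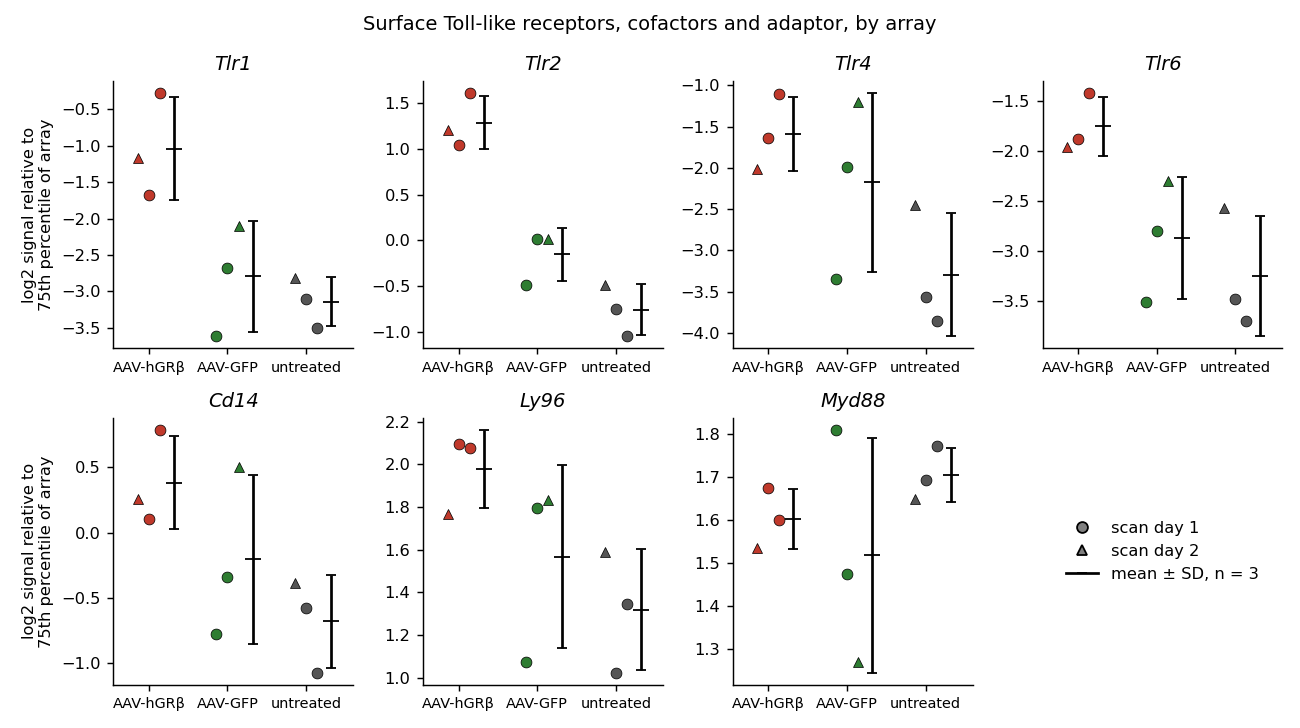
Log2 level of each of the 7 genes on every array (vertical axis, relative to the 75th percentile of the array; each panel has its own range), with the AAV-hGRβ, AAV-GFP and untreated groups from left to right. Circles are arrays of scan day 1, triangles those of scan day 2, and black bars the mean ± SD of 3 arrays; the 3 AAV-hGRβ arrays lie above all others for Tlr1, Tlr2 and Tlr6, and within the range of the others for Myd88.

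Tlr2, Tlr4 and Myd88 were each printed 10 times on every array, which gives their measurement error within an array. For Tlr2 the SD over spots was 0.0175 to 0.0733 log2 units, from 6 to 10 usable spots per array. The lowest usable Tlr2 spot of any AAV-hGRβ array was at 0.99, against 0.07 for the highest of any AAV-GFP array and -0.42 for the highest of any untreated array. The usable AAV-hGRβ spots therefore lay above those of both other groups, as the array means already implied. Spots repeat the measurement of 1 array and add no samples. The spot SD was 0.0572 to 0.167 for Tlr4 and 0.0291 to 0.0691 for Myd88. For Tlr4 the SD between arrays was larger, at 0.454 in AAV-hGRβ, 1.08 in AAV-GFP and 0.745 in untreated livers. For Myd88 it was 0.27 in AAV-GFP livers. In AAV-hGRβ (0.0691) and untreated livers (0.0632) the Myd88 SD between arrays was no larger than the highest spot SD.

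**Figure D2:**
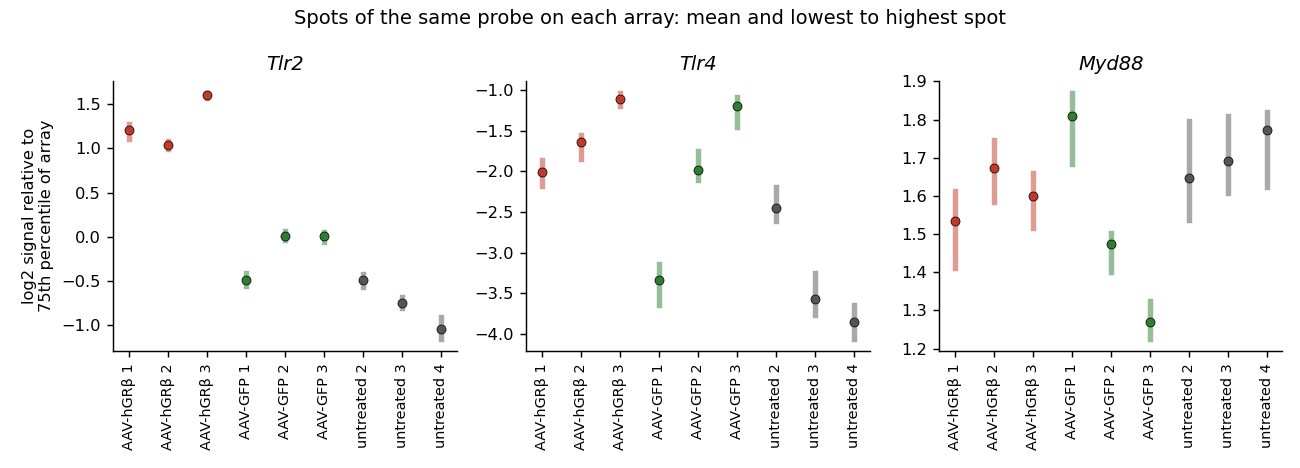
Repeated usable spots of the Tlr2, Tlr4 and Myd88 probes on each array. Points are the mean of the spots and bars run from the lowest to the highest spot. The vertical axis is in log2 units relative to the 75th percentile of the array. The Tlr2 bars of the AAV-hGRβ arrays start at 0.99, above all AAV-GFP and untreated bars, whereas the Tlr4 bars of AAV-hGRβ 3 and AAV-GFP 3 overlap.

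Tlr1, which pairs with TLR2 to recognise triacylated lipopeptides, rose against untreated liver. Its log2 level was -1.17, -1.68 and -0.28 in AAV-hGRβ livers, against -3.61, -2.68 and -2.10 in AAV-GFP livers and -2.82, -3.11 and -3.50 in untreated livers. All AAV-hGRβ arrays were above all others, with the highest level on AAV-hGRβ 3, and the lowest of all arrays was AAV-GFP 1. The difference against untreated liver was 4.3-fold (log2 2.10, SE 0.45, limma adjusted p = 0.0453). Against AAV-GFP it was 3.37-fold (log2 1.76, SE 0.45, 95% interval 0.74 to 2.77), and it did not pass after adjustment (unadjusted p = 0.0037, limma adjusted p = 0.152). The AAV-GFP and untreated groups differed by 0.35 (limma adjusted p = 0.721). Under normexp background correction the Tlr1 difference was 0.63 against untreated liver and 0.43 against AAV-GFP. With bright local backgrounds (at most 19 of the 45018 spots of an array) replaced before normexp, these were 1.44 and 1.11. Values called normexp elsewhere are without this replacement unless it is named. The call against untreated liver was lost in 12 of 25 alternative settings, among them the fits without AAV-hGRβ 1, 2 or 3, AAV-GFP 2, or untreated 3 or 4, with limma adjusted p-values up to 0.181 in these and from 0.00459 to 0.734 over all settings.

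Tlr6, the partner of TLR2 for diacylated lipopeptides and the chromosomal neighbour of Tlr1, had the same order of groups with smaller differences. Its log2 level was -1.96, -1.89 and -1.42 in AAV-hGRβ livers, against -3.51, -2.80 and -2.30 in AAV-GFP livers and -2.57, -3.48 and -3.70 in untreated livers. The AAV-hGRβ arrays again lay above all others, and the AAV-GFP and untreated arrays were interleaved. The log2 difference was 1.12 (SE 0.38, limma adjusted p = 0.277) against AAV-GFP and 1.5 (SE 0.38, limma adjusted p = 0.0663) against untreated liver, so neither passed. Against untreated liver Tlr6 did pass in 5 of 25 alternative settings, one of them the fit without untreated 2, with limma adjusted p-values of 0.00375 to 0.938 over all of them. Under normexp background correction its difference from AAV-GFP turned to -0.12, and with bright local backgrounds replaced it was 0.59.

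Tlr4, the lipopolysaccharide receptor, had the widest error of the 7 genes. By its main probe the log2 level was -2.01, -1.64 and -1.11 in AAV-hGRβ livers, against -3.34, -1.99 and -1.20 in AAV-GFP livers and -2.45, -3.57 and -3.86 in untreated livers. AAV-GFP 3 lay among the AAV-hGRβ arrays and AAV-GFP 1 among the untreated ones. The difference between AAV-hGRβ and AAV-GFP was 0.59 (SE 0.56, 95% interval -0.68 to 1.85, limma adjusted p = 0.777). Under normexp background correction it was -0.10, and with bright local backgrounds replaced it was 0.29. Against untreated liver the groups did not overlap, and the difference of 1.70 (SE 0.56) did not pass (limma adjusted p = 0.117). The largest difference of any member between AAV-GFP and untreated livers was that of Tlr4, at 1.12 (SE 0.56, limma adjusted p = 0.491).

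The other Tlr4 probe gave no measurable level. It was well above background on AAV-hGRβ 1 alone, at -3.49, and read -6.55 and -6.52 on the other AAV-hGRβ arrays, -6.51, -6.93 and -4.21 on the AAV-GFP arrays and -4.72, -5.96 and -7.08 on the untreated arrays. It was left out of the tests.

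Cd14, which hands lipopolysaccharide to the TLR4 complex, had log2 levels of 0.25, 0.11 and 0.78 in AAV-hGRβ livers, against -0.78, -0.34 and 0.50 in AAV-GFP livers and -0.38, -0.58 and -1.07 in untreated livers. The AAV-hGRβ arrays were above all untreated arrays, but AAV-GFP 3 exceeded 2 of the 3 AAV-hGRβ arrays. The difference was 1.06 (SE 0.35, 2.08-fold) against untreated liver, with an unadjusted p of 0.014 and a limma adjusted p of 0.117. Against AAV-GFP it was 0.59 (SE 0.35, limma adjusted p = 0.584).

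Ly96, which encodes the lipopolysaccharide-binding subunit of the TLR4 complex, had log2 levels of 1.77, 2.09 and 2.08 in AAV-hGRβ livers, against 1.07, 1.80 and 1.84 in AAV-GFP livers and 1.59, 1.02 and 1.34 in untreated livers. AAV-hGRβ 1 lay just under AAV-GFP 2 and 3, and all AAV-hGRβ arrays lay above all untreated ones. The difference was 0.66 (SE 0.25, limma adjusted p = 0.153) against untreated liver and 0.41 (SE 0.25, limma adjusted p = 0.599) against AAV-GFP.

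Myd88, the adaptor that all 4 receptors use, did not follow them. Its log2 level was 1.54, 1.67 and 1.60 in AAV-hGRβ livers, against 1.81, 1.47 and 1.27 in AAV-GFP livers and 1.65, 1.69 and 1.77 in untreated livers. The 3 groups overlapped, and the highest and the lowest arrays of all were both AAV-GFP arrays. The difference was 0.09 against AAV-GFP (SE 0.17, 95% interval -0.31 to 0.48, limma adjusted p = 0.911) and -0.10 against untreated liver (95% interval -0.50 to 0.29, limma adjusted p = 0.726). Both intervals include 0 and lie within 0.50 log2 units of it in either direction. The sign of its difference against AAV-GFP turned to -0.25 under scaling to the array median and to -0.04 without AAV-GFP 3. That against untreated liver turned to 0.23 under normexp, but was -0.10 with bright local backgrounds replaced.

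**Figure D3:**
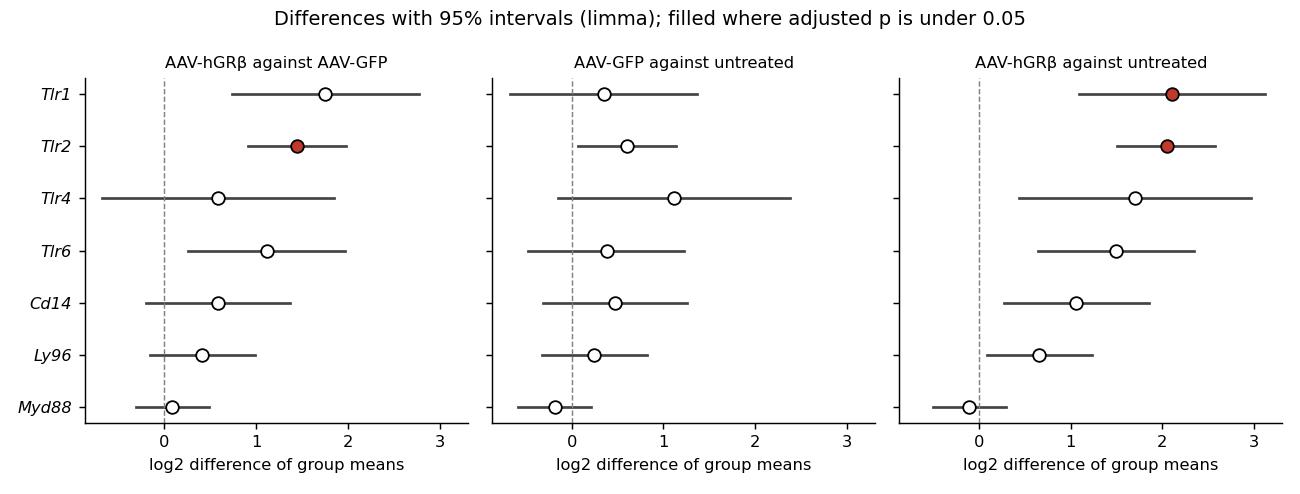
Log2 differences of group means (horizontal axis) for the 7 genes, with 95% intervals from limma, for AAV-hGRβ against AAV-GFP, AAV-GFP against untreated and AAV-hGRβ against untreated; filled points have an adjusted p under 0.05. Only Tlr2 is filled in the first panel, none in the second, and Tlr1 and Tlr2 in the third, and the Myd88 intervals include 0 in all 3 panels.

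Across the group, 1 of 7 members rose and none fell between AAV-hGRβ and AAV-GFP livers, where 0.803% of all tested genes rose and 0.0774% fell at the same threshold. Tlr1, Tlr2 and Tlr6 had AAV-hGRβ arrays above all AAV-GFP arrays, 3 of 7 members, against 9.44% of all tested genes. The median log2 difference of the members was 0.59, beside 0.02 for all tested genes. Against untreated liver, 2 of 7 members rose, and none fell, beside 2.48% and 0.75% of all tested genes, and 6 of 7 did not overlap, beside 14.7%. The member median was 1.5 there, beside 0.09 for all genes. Between AAV-GFP and untreated livers no member and no gene passed in limma (0% called in either direction). At an unadjusted p under 0.05, 1 of 7 members was higher there, beside 4.62% of genes, and the member median was 0.38, beside 0.04. The 3 comparisons share arrays, so their counts are not independent of one another.

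Some settings moved all genes together. With arrays scaled to their median, the median difference of all genes was -0.32 between AAV-hGRβ and AAV-GFP livers and -0.24 between AAV-hGRβ and untreated livers, with member medians of 0.25 and 1.16. Against untreated liver the median of all genes was -0.13 under normexp and -0.03 under quantile normalization, with member medians of 0.63 and 1.26. With bright local backgrounds replaced before normexp, the median of all genes was 0.07 and that of the members 0.89. A comparison within each array, in which scaling cancels, was made after the values were seen by subtracting the Myd88 level from that of each other member. Relative to Myd88 the difference between AAV-hGRβ and AAV-GFP livers was 1.67 for Tlr1, 1.36 for Tlr2, 1.03 for Tlr6, 0.50 for Tlr4, 0.50 for Cd14 and 0.33 for Ly96.

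The differences between AAV-hGRβ and AAV-GFP were also taken within each scan day. Day 2 held 1 array a group, and the AAV-hGRβ and AAV-GFP arrays of that day, AAV-hGRβ 1 and AAV-GFP 3, shared a slide. All other arrays lay on slides that held 1 group only. The day, the slide and these single arrays cannot be told apart. On day 1, with 2 arrays against 2, Tlr2 differed by 1.56, and on day 2, with 1 array against 1, by 1.20. Tlr1 differed by 2.17 on day 1 and 0.93 on day 2, and Tlr6 by 1.5 and 0.34. The sign turned between the days for Tlr4, at 1.29 on day 1 and -0.81 on day 2, for Cd14, at 1.00 and -0.25, and for Ly96, at 0.65 and -0.07. Myd88 gave -0.01 on day 1 and 0.27 on day 2. Against untreated liver the differences of Tlr1 were 2.33 on day 1 and 1.66 on day 2, those of Tlr2 2.22 and 1.70, and those of Tlr4 2.34 and 0.44. With the scan day as a block, Tlr2 kept its call in both AAV-hGRβ comparisons (limma adjusted p = 0.0293 and 0.00513), and Tlr6 passed against untreated liver (limma adjusted p = 0.0354). With the slide as a random block (correlation 0.462) the Tlr2 difference against AAV-GFP was 1.35 and did not pass (limma adjusted p = 0.103), and with the slide as a fixed block, which rests on the 1 shared slide and so restates the day 2 value, it was 1.20 (limma adjusted p = 0.662). Against untreated liver Tlr2 passed with the slide as a random block (limma adjusted p = 0.0471).

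**Figure D4:**
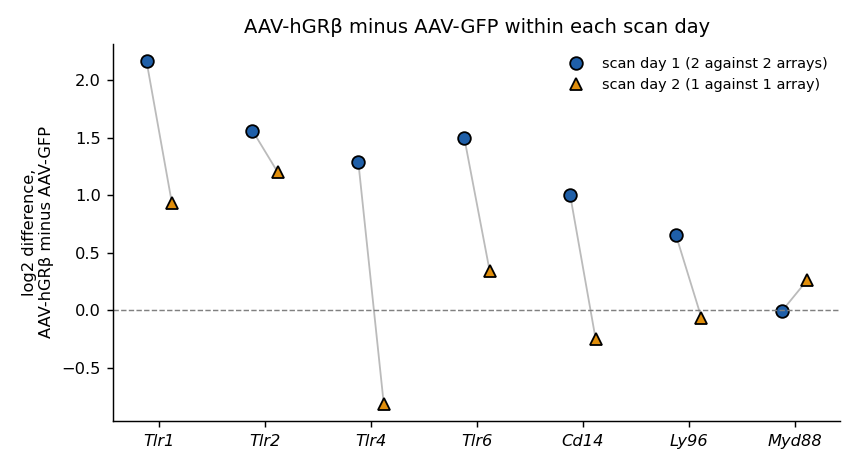
Log2 difference between AAV-hGRβ and AAV-GFP livers (vertical axis) for each gene within scan day 1 (circles, 2 arrays against 2) and scan day 2 (triangles, 1 array against 1, no replicate). Tlr1, Tlr2 and Tlr6 lie above 0 on both days, while Tlr4, Cd14 and Ly96 lie below 0 on day 2.

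The day 2 arrays include AAV-GFP 3, which had the highest levels of its group for Tlr1, Tlr4, Tlr6, Cd14 and Ly96 and the lowest for Myd88. The same array had the highest summed level of the Kupffer cell and macrophage markers of all arrays, at 870 times the 75th percentile, of which Marco alone made up 507. The other 15 markers summed to 363 on it, within the range of the AAV-hGRβ arrays. Without AAV-GFP 3 the difference from AAV-GFP was 2.10 for Tlr1, 1.53 for Tlr2, 1.40 for Tlr6, 1.08 for Tlr4, 0.94 for Cd14 and 0.55 for Ly96, and no member passed (limma adjusted p-values 0.0514 to 0.365). Without it the difference of Tlr1 between AAV-GFP and untreated livers was -0.001.

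Levels of markers of the cells that carry these receptors were set beside the members. The counts of rising markers here and in the next paragraph stand beside 0.803% of all tested genes against AAV-GFP and 2.48% against untreated liver. The summed level of 16 Kupffer cell and macrophage markers was 341, 361 and 527 in AAV-hGRβ livers, against 172, 311 and 870 in AAV-GFP livers and 221, 194 and 144 in untreated livers. The AAV-hGRβ and AAV-GFP arrays overlapped, and Marco, a scavenger receptor gene, made up 507 of the 870 on AAV-GFP 3. The 15 markers other than Marco, left aside after the values were seen, summed to 319 to 480 in AAV-hGRβ livers, against 168 to 363 in AAV-GFP and 136 to 212 in untreated livers. All 16 markers were well above background on all arrays. None passed between AAV-hGRβ and AAV-GFP livers, and 2 of 16 rose against untreated liver, namely Clec4f, a Kupffer cell lectin, by 1.17 (limma adjusted p = 0.0372) and Cd5l, a macrophage-secreted protein, by 1.26 (limma adjusted p = 0.0445). In bulk RNA a change in the number of such cells and a change in RNA per cell cannot be told apart. Neutrophil and monocyte markers summed to 60.1 to 94.6 in AAV-hGRβ livers, against 21.6 to 28.6 in AAV-GFP and 24.2 to 24.8 in untreated livers. Ly6c1 alone, which endothelial cells also express, made up 40.5 to 70 of this in AAV-hGRβ livers, against 6.99 to 9.88 in AAV-GFP and 4.16 to 8.01 in untreated livers. The other 11 markers summed to 16.3 to 24.6 in AAV-hGRβ livers, against 11.8 to 21.6 in AAV-GFP and 16.8 to 20.3 in untreated livers, and these ranges overlapped. Of 12 tested, 2 rose against AAV-GFP, Ly6c1 by 2.84 (limma adjusted p = 0.00671) and Chil3 by 1.92 (limma adjusted p = 0.0444). Against untreated liver Ccr2, the receptor that brings monocytes into tissue, rose as well, by 1.78 (limma adjusted p = 0.034). Fn1 and Csf3r had differences of -0.71 and -0.47 against AAV-GFP that did not pass (limma adjusted p = 0.52 and 0.756) and are named after their values were seen. Under normexp the difference against AAV-GFP was 0.51 for Chil3, and that against untreated liver 0.24 for Ccr2. With bright local backgrounds replaced these were 1.27 and 1.02.

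Dendritic cell markers summed to 248 to 301 in AAV-hGRβ livers, against 94.6 to 135 in AAV-GFP and 78.4 to 117 in untreated livers. This sum was nearly all Bst2, an interferon-inducible gene, and the other 9 markers summed to 2.25 to 3.2 in AAV-hGRβ livers, against 1.22 to 2.19 in AAV-GFP and 1.25 to 1.62 in untreated livers. Of 10 tested, Bst2 alone rose, by 1.23 against AAV-GFP (limma adjusted p = 0.0398) and 1.49 against untreated liver (limma adjusted p = 0.0118). T and NK cell markers summed to 6.55 to 14.5 in AAV-hGRβ livers, against 3.13 to 3.77 in AAV-GFP and 2.96 to 3.54 in untreated livers. Of these 15 markers, 9 were well above background on all arrays and 4 rose against AAV-GFP. Among the 4 were the granzyme gene Gzma, by 3.72 (limma adjusted p = 0.0109), and the T cell coreceptor gene Cd8a (limma adjusted p = 0.00885). Cd3e, Cd8b1 and Prf1, named after their values were seen, differed by 0.02, 0.005 and 0.19 (limma adjusted p = 0.994, 0.996 and 0.963). The other kept Cd8b1 probe differed by 2.66. No AAV-GFP array read well above background for Cd8a, and the probe that stood for it rose at least 12.6-fold. That probe passed the filter through the AAV-hGRβ arrays alone, so the filter itself favoured a rise. The lowest log2 difference among the 3 kept Cd8a probes was 2.67. Under normexp the differences against AAV-GFP were 1.51 for Gzma and 0.36 for Cd8a. B and plasma cell markers summed to 2.95 to 4.4 in AAV-hGRβ livers, against 1.49 to 3.04 in AAV-GFP and 1.3 to 2.36 in untreated livers. Of 7 tested none passed against AAV-GFP, and Cd22 rose against untreated liver by 1.38 (limma adjusted p = 0.0368). The Cd22 difference turned to -0.03 under normexp, and with bright local backgrounds replaced it was 0.74. Of the sinusoidal endothelial, stellate cell, cholangiocyte and hepatocyte markers none passed in any comparison. Against AAV-GFP all 12 endothelial and all 12 hepatocyte markers tested lay below 0, with medians of -0.27 and -0.29, beside 0.02 for all tested genes. Under normexp some signs turned, such as that of Alb, from -0.16 to 0.60. Endothelial markers summed to 37.5 to 46.7 in AAV-hGRβ livers, against 39.8 to 70.2 in AAV-GFP and 39.2 to 54.2 in untreated livers. The 12 tested hepatocyte markers were well above background on all arrays and summed to 3150 to 3920 in AAV-hGRβ livers, against 3830 to 4920 in AAV-GFP and 3200 to 4570 in untreated livers. The part of these cells in the differences of the receptors was not tested.

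The rest of the pathway was described from lists sorted by role. Over all of them, 6 of 99 tested genes rose between AAV-hGRβ and AAV-GFP livers and 13 of 99 against untreated liver, and none fell. The shares of all tested genes that rose were 0.803% and 2.48%. The intracellular and other Toll-like receptors had 4 genes tested. Tlr7, an endosomal receptor for single-stranded RNA, rose by 2.07 against untreated liver (limma adjusted p = 0.0384) and differed by 1.47 from AAV-GFP without passing (limma adjusted p = 0.19), and by 0.90 and 0.62 under normexp. Tlr9, the receptor for unmethylated DNA, differed from AAV-GFP by -0.32 (limma adjusted p = 0.598), and by 0.38 under normexp. Of the genes for ligand delivery and accessory receptors, 0 of 12 passed against AAV-GFP and 1 of 12 rose against untreated liver. That gene was Clec7a, the β-glucan receptor Dectin-1, with a difference of 2.68 (limma adjusted p = 0.0203) and of 1.90 against AAV-GFP (limma adjusted p = 0.112). For Clec4e, the receptor Mincle, no AAV-GFP array read well above background, and its level in AAV-hGRβ livers exceeded that in AAV-GFP livers at least 4.57-fold without passing (limma adjusted p = 0.112).

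The proteins that fold, carry and couple the receptors gave no call. Of 8 folding and trafficking genes none passed, the smallest p-values belonging to Unc93b1, the escort of the endosomal receptors, at 0.40 (limma adjusted p = 0.441) and to Rnf170 at -0.29 (limma adjusted p = 0.632). Of 8 further adaptors and kinases that act close to the receptors none passed. Their median difference was 0.09 against AAV-GFP and -0.45 against untreated liver. The kinase gene Irak2 differed from AAV-GFP by 0.30 (limma adjusted p = 0.621) and the adaptor Ticam1 by 0.15 (limma adjusted p = 0.834). None of 16 downstream kinases and ubiquitin ligases passed, with Ikbkg, a subunit of the IκB kinase complex, at 0.39 (limma adjusted p = 0.34) and the kinase gene Map3k8 at 0.54 (limma adjusted p = 0.669).

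Among 12 transcription factors, Atf3, a stress-induced factor known to restrain Toll-like receptor responses, rose by 1.83 against AAV-GFP (limma adjusted p = 0.0231). Against untreated liver it rose by 2.07 (limma adjusted p = 0.00826). Under normexp these differences were 0.61 and 0.86, or 1.30 and 1.51 with bright local backgrounds replaced. Irf8, a factor of the macrophage and dendritic cell lineages, differed from AAV-GFP by 0.75 (limma adjusted p = 0.157). Of 17 negative regulators none passed against AAV-GFP. Socs1, an inhibitor of cytokine signalling, differed by 1.05 (limma adjusted p = 0.0855). Trafd1 differed by 0.72 (limma adjusted p = 0.124), with a rise of 0.99 against untreated liver (limma adjusted p = 0.0269). The other of the 2 kept Trafd1 probes differed by only 0.31 against AAV-GFP and 0.31 against untreated liver.

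The genes induced by these receptors held most of the calls of the pathway lists. Of 29 listed, 23 were tested, since Il10, Il12b, Cxcl2, Nos2, Ptgs2 and Csf3 had no probe that passed the filter. Of the 23 tested, 5 rose against AAV-GFP and 9 against untreated liver, beside 0.803% and 2.48% of all tested genes. Differences lay above 0 for 21 and 19 of them. Below 0 against untreated liver, without passing, were Saa3 (-0.67), Lcn2 (-0.54), Il12a (-0.36) and Marcksl1 (-0.24). The median differences of the tested genes were 1.09 against AAV-GFP and 1.67 against untreated liver. Setting genes below background to their bounds (3 against AAV-GFP, 1 against untreated) could not move these medians, since the bounds lay above them. Of the 23, 14 were well above background on all arrays. Tnf, Ifnb1, Ccl3, Cd80 and Clec4e passed the filter through the AAV-hGRβ arrays alone, where they were high. For them the filter itself favoured a rise. Against AAV-GFP the T cell and monocyte chemokine genes rose by 3.21 for Ccl4 (limma adjusted p = 0.0127), 2.96 for Ccl5 (limma adjusted p = 0.0309) and 1.88 for Cxcl10 (limma adjusted p = 0.0305). Tnf rose by 1.53 (limma adjusted p = 0.0309), although it was well above background on only 1 AAV-GFP array and 1 untreated array. Its difference turned to -0.71 under normexp, and with bright local backgrounds replaced it was 0.30. Ifnb1, the interferon β gene, read well above background on the AAV-hGRβ arrays alone, at least 5.09-fold over AAV-GFP livers (limma adjusted p = 0.000698). Its difference turned to -0.21 under normexp, and with bright local backgrounds replaced it was 1.01. Against untreated liver, calls were added for Ccl3 at 3.97 (limma adjusted p = 0.0283), Icam1 at 0.89 (limma adjusted p = 0.0361), Cd40 at 1.90 (limma adjusted p = 0.0491) and Cd86 at 1.98 (limma adjusted p = 0.0475), the first a chemokine, the second an adhesion molecule and the others costimulatory molecules. Under normexp the differences against untreated liver were 0.27 for Ccl3, 0.22 for Cd40, 0.71 for Cd86 and 1.51 for Ccl4. With bright local backgrounds replaced they were 1.435, 1.05, 1.40 and 2.65 in the same order. Against AAV-GFP, Ccl3 was at -0.02 under normexp and at 1.09 with that replacement. Ccl5 is also made by T and NK cells, whose summed marker level was higher in AAV-hGRβ livers as given above.

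**Figure D5:**
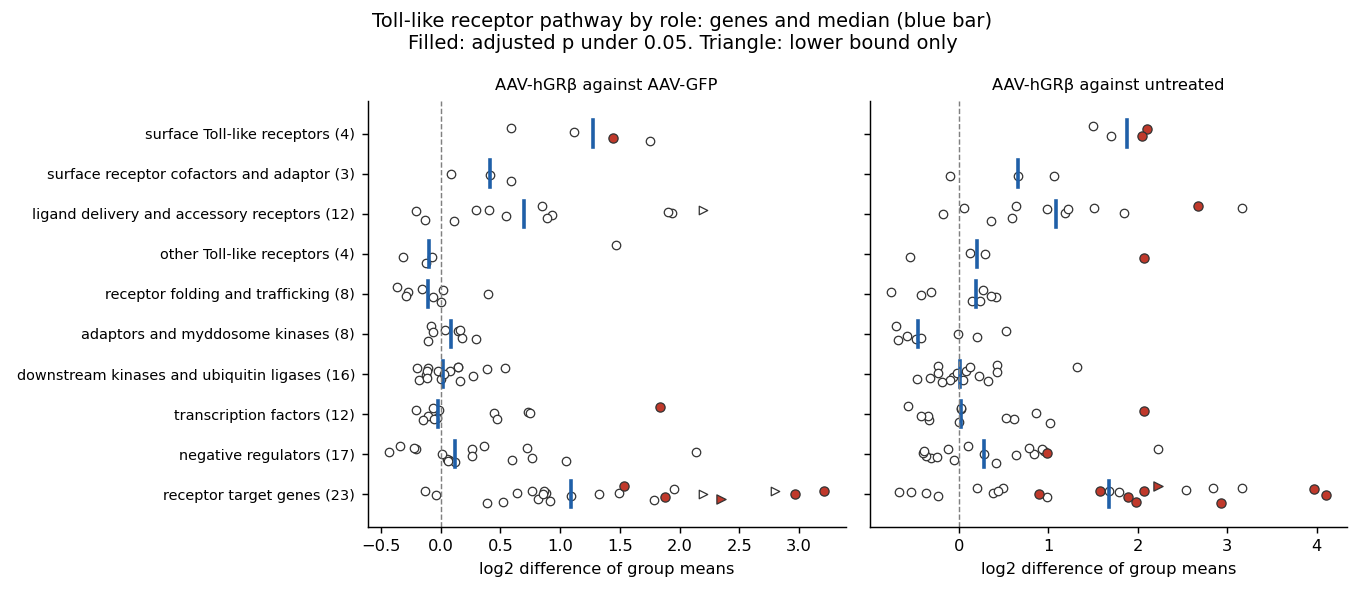
Log2 differences of group means (horizontal axis) for every tested gene of the pathway lists, by role, for AAV-hGRβ against AAV-GFP on the left and AAV-hGRβ against untreated on the right, with the number of genes in parentheses; blue bars are medians, filled symbols have a limma adjusted p under 0.05 and triangles are lower bounds for genes below background in the other group. The 4 surface receptors lie above 0 in both panels, as do most target genes, while the adaptors and kinases lie on both sides of 0.

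The members were also set against one another over the 9 arrays, as a description, since all share arrays and scaling. The Pearson correlations among Tlr1, Tlr2, Tlr4, Tlr6, Cd14 and Ly96 were 0.801 to 0.953, the highest between Tlr1 and Tlr2. Myd88 correlated with each of them between -0.725 and -0.314. Other genes were ranked by likeness only where they were tested and had a gene symbol, and names that are identifiers were passed over. Among these, the patterns most like Tlr1 were those of Ncf4 (r = 0.993), Dock11 and Gng2 (both 0.991). Those most like Tlr2 were Ddias and Phf11a (both 0.988) and Eda2r (0.985). For Tlr6 they were Casp4 (0.994), Hcst (0.993) and Lpxn (0.991), and for Tlr4 BC028528 (0.99), Lilra5 and Cmtm2a (both 0.988). Cd14 was most like Aoah (0.994), which encodes an enzyme that deacylates lipopolysaccharide, followed by Pkib (0.987) and Ccdc198 (0.981). Ly96 was most like Rpgrip1l (0.977), Sdr9c7 (0.969) and Nop58 (0.967). Myd88 was most like Casp8 (0.945), Tmem176a (0.926) and Map3k3 (0.916), lower values than for any other member.

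Promoter windows of 250 bases before to 50 bases after the annotated start were taken from RefSeq, build GRCm38.p6, where Tlr1, Tlr2, Tlr6 and Myd88 had 6 windows between them. They are shown for Tlr2, which rose, for Tlr6 and for Myd88, whose level did not follow the receptors. Both strands were searched for the NF-κB (κB) consensus, found in 4.5% of all 32851 windows, the interferon-stimulated response element, in 3.4%, the gamma-activated site TTCNNNGAA, in 8.3%, and the PU.1 core GAGGAA, in 28.3%. The Tlr2 window held κB matches starting at -173 and -172, which overlap, and at -8. One Tlr6 window held response element matches at -116 and -110 on the opposite strand, which also overlap, and the other held gamma-activated site matches at -3 and 8. The Myd88 window held a gamma-activated site at -46 that overlaps a response element at -40. The 2 Tlr1 windows held a gamma-activated site at -228 and a PU.1 core at -23. These are matches of letters, and binding was not measured. In the sequences, printed 5′ to 3′ along the gene, capitals mark the matches:
Tlr2, chr3:83841559-83841858, minus strand: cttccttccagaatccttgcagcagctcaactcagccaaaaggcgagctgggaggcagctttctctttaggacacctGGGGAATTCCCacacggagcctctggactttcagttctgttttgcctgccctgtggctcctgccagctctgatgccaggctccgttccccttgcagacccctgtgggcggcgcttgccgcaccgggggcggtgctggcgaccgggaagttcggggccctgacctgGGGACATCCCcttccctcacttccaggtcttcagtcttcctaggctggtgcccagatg
Tlr6, chr5:64959117-64959416, minus strand: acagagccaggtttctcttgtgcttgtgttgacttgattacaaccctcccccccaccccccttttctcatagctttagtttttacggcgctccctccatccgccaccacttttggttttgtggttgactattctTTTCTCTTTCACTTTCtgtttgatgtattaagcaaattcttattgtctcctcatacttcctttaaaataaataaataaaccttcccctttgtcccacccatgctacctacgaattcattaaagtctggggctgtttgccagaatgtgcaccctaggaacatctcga
Myd88, chr9:119339969-119340268, minus strand: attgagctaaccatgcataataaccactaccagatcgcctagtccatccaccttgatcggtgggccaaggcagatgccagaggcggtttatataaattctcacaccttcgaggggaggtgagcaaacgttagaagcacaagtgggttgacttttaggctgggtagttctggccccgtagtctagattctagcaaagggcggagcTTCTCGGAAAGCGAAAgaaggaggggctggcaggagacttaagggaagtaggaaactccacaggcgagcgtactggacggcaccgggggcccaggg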

How the data were processed

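Per the file headers, the authors deposited 1 file per array with the Cy3 intensity of each spot on a linear scale. The scanner software had already subtracted background and a spatial trend, and nothing had been scaled between arrays. Per the submitters' processing notes, this was version 9.5 of Agilent Feature Extraction. The deposited series table held the same intensity values (largest difference 0). Spots marked as outliers and control spots were left out, spots of a probe were averaged, and log2 levels were taken relative to the 75th percentile of each array. The filter kept the 24290 probes that read well above background on every array of 1 group or more. A gene was represented by its kept probe with the highest mean. Of the 41174 gene probes, 22951 were named through their accession, 294 through a gene identifier, 6659 through a current and 3109 through an older symbol, and 8161 kept the name in the files. Differences were tested with limma 3.58.1 (R 4.3.3) by lmFit and eBayes with 6 residual degrees of freedom, which was tested on simulated data with 200 changed genes. A gene below background in a whole group has only a bound, computed against the higher of its own signal and the lowest signal among probes well above background on each array. The p-value of such a gene comes from the fit to its own signals and not from the bound. Named are all members, and of each pathway list the genes past the threshold and the 2 with the smallest p against AAV-GFP. Of each marker list at most 3 genes past the threshold are named. For each member the 3 genes most correlated with it are named, among tested genes with a symbol. The members and lists were chosen with earlier results of these data known. Alternatives were normexp background correction (offset 50, with and without bright local backgrounds above 3 times the median replaced), median scaling, quantile normalization, other filters and probe rules, array weights, scan day, slide or replicate number as a block, 2 groups only, and each array left out. Depth does not apply to arrays, whose number limits the precision. The sequence of the Cd14 probe is not reported here.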

Additional observations from a re-analysis of the deposited data

How the results depend on the processing

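Tlr2 against untreated liver was the most stable of the calls, kept in 23 of 25 tested alternatives, and the direction of Tlr1 and Tlr2 in both comparisons with AAV-hGRβ was kept in all alternatives run. For AAV-hGRβ against AAV-GFP (1 member and 148 genes called), no member was called under normexp (18 genes), median scaling (77), no filter (30), scan day 1 alone (3), slide as a random block (75, correlation within slides 0.462), slide as a fixed block (4) and 2 groups only (67). With scan day as a block 248 genes were called, with array weights 3 members and 2116 genes, and without 1 array 0 to 1 members and 33 to 154 genes. For AAV-hGRβ against untreated liver (2 members and 542 genes), normexp gave 0 members and 47 genes, quantile normalization 1 member, no filter 1 and 84, scan day as a block 1192 genes, scan day 1 alone 5 and 4716, slide as a random block 1 and 58, 2 groups only 1 and 302, array weights 6 and 6639, and without 1 array 1 to 3 members and 94 to 1960 genes. For AAV-GFP against untreated liver (0 and 0), median scaling gave 2 genes, quantile normalization, scan day as a block and scan day 1 alone 1 each, array weights 4 members and 6939 genes, and without 1 array 0 to 1 genes. The cause of these changes was not tested.

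Signs turned under normexp for Tlr4 (-0.10) and Tlr6 (-0.12) against AAV-GFP, Ly96 (-0.0047, AAV-GFP against untreated) and Myd88 (0.23, AAV-hGRβ against untreated). With bright local backgrounds replaced these 4 kept their signs, at 0.29, 0.59, 0.12 and -0.10. Signs also turned for Myd88 against AAV-GFP under median scaling (-0.25), on scan day 1 alone (-0.0050) and without AAV-GFP 3 (-0.039). With slide as a fixed block they turned for Tlr4 (-0.81), Cd14 (-0.25) and Ly96 (-0.065), which restates the unreplicated scan day 2 pair, since 1 slide alone held both groups. For Tlr1, AAV-GFP against untreated, the sign turned without AAV-GFP 3 (fits without 1 array gave -0.0013 to 0.757). Slide as a fixed block could not be fitted for the comparisons with untreated liver, whose arrays lay on slides of their own.

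Arrays with the same replicate number did not deviate together between AAV-hGRβ and AAV-GFP (correlations of 0.0145, 0.241 and 0.014), so the numbers were not taken as pairs. With the number as a replicate block, 0 members and 2 genes were called against AAV-GFP (Tlr2 adjusted p = 0.125) and 0 members and 0 genes for AAV-hGRβ against untreated liver, in fits with as few as 1 residual degree of freedom.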
